A study of Canis lupus familiaris with 2 samples.

Results

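The classical cadherins, their catenins and the marker genes and factors of the epithelial to mesenchymal transition were followed in MDCK cells at 2 heights of culture medium. MDCK is an established line of dog kidney epithelium. The 10 genes were chosen by symbol and comprise *CDH1*, *CDH2* and *CDH6*, *CTNNA1*, *CTNNB1* and *CTNND1*, *VIM* and *FN1*, and *SNAI2* and *ZEB1*. All 10 were among the 23510 features listed, 10 had a value above 0 in both cultures, and 8 had a value above 1 FPKM in both. FPKM is a fragment count divided by exon length and by library size, so levels can be compared between genes per unit of length. The cells were plated on a semipermeable membrane in EMEM with serum, and 1 culture was kept under 2-cm-high medium (2 cm H2O, the culture labelled as having no pressure) and 1 under 50-cm-high medium (50 cm H2O) until day 3. The height of the medium sets the static pressure on the cells, and the comparison asks how that pressure changes gene expression in a columnar epithelium. With 1 library per medium height there is no replicate error, no difference could be tested, and every ratio below describes these 2 libraries.

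Cadherins are calcium-dependent adhesion proteins that join neighbouring cells at adherens junctions. Inside the cell, the cadherin tail binds beta-catenin and p120-catenin, and alpha-catenin links beta-catenin to actin. In the transition, epithelial cells lower E-cadherin and gain N-cadherin, vimentin and fibronectin, under repressors of the Snail and ZEB families that bind the E-cadherin promoter. MDCK cells are a classical model both of E-cadherin adhesion and of its loss, and kidney epithelium is known for carrying other cadherins, such as cadherin 6, beside E-cadherin.

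The labelled cell type was checked against fixed markers. Of 7 markers of kidney tubule epithelium, 6 were analysed, and their summed level was 3372 FPKM under 2-cm-high medium and 3169 FPKM under 50-cm-high medium, mostly from *KRT8* and *KRT18*. *PAX2* and *PAX8*, transcription factors of the kidney lineage, were at 28.3 and 65.1 FPKM under 2-cm-high medium. *CDH16*, the kidney-specific cadherin, was low, with 1.96 FPKM under 2-cm-high medium and 0.676 FPKM under 50-cm-high medium. The 8 fibroblast markers summed to 0.374 and 0.401 FPKM, with 4 of them listed at 0 in both cultures. The 5 endothelial markers summed to 0.474 and 0.277 FPKM and the 3 leukocyte markers analysed to 0.0734 and 0.0201 FPKM. Against vimentin at 1802 FPKM in the same library, these defining markers of other cell types were near 0.

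*VIM*, *FN1* and *SNAI2* were all higher under 50-cm-high medium, by 32.0%, 47.3% and 39.3%, whereas *CDH1* and *CDH6* differed by 8.24% and 1.98%. All 3 catenins were lower under 50-cm-high medium, *CTNNB1* by the widest margin at a ratio of 0.844. *CDH2* and *ZEB1*, the mesenchymal cadherin and an E-cadherin repressor, stayed under 1 FPKM in both cultures. Over the 8 genes above 1 FPKM in both cultures, 5 were higher and 3 lower. Of all 11057 features above 1 FPKM in both, 5820 were higher and 5236 lower. The median log2 ratio of the 8 genes, 50 cm over 2 cm, was 0.07, beside 0.01 for all those features. With quantile normalization it was 0.0039, below the 0.01 of all features. Cell numbers of the sequenced cultures are not given, and in bulk libraries fewer cells with a transcript and less of it per cell cannot be told apart.

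None of the 8 genes passed 2-fold or 1.5-fold in either direction. Among all features above 1 FPKM in both cultures, 0.389% were more than 2-fold higher and 1.28% more than 2-fold lower under 50-cm-high medium. At 1.5-fold, 2.13% of those features were higher and 5.06% lower. With shares this small, a count of 0 among 8 genes is near what the whole table shows. The largest ratio of the 8 was that of *FN1*, 1.47, just under the 1.5-fold limit.

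**Figure D1:**
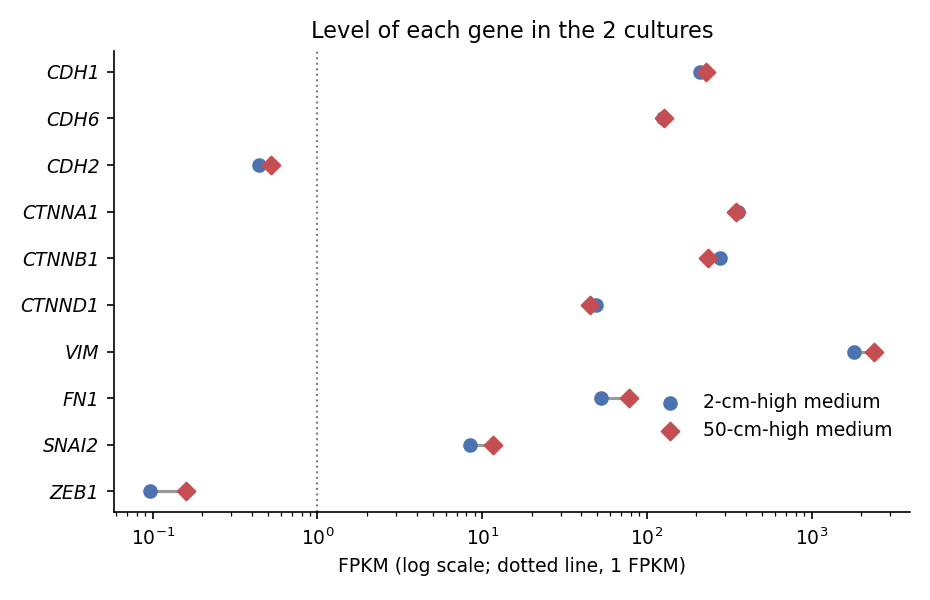
FPKM (log axis) of each of the 10 genes under 2-cm-high medium (blue circles) and 50-cm-high medium (red diamonds), 1 library each, with a dotted line at 1 FPKM. *VIM*, *FN1* and *SNAI2* lay to the right under 50-cm-high medium, *CDH1*, *CDH6* and *CTNNA1* nearly coincided, and *CDH2* and *ZEB1* lay left of the line.

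*CDH1* encodes E-cadherin, the main epithelial cadherin. Its level was 211 FPKM under 2-cm-high medium and 229 FPKM under 50-cm-high medium, a ratio of 1.08. It ranked 399 and 383 among all features. The log2 ratio of *CDH1*, 0.11, exceeded that of 66.5% of the features above 1 FPKM in both cultures and of 58.4% of the 500 features nearest to it in mean log2 FPKM, so it lay near the middle of both.

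*CDH6* encodes cadherin 6, or K-cadherin, named for its abundance in kidney. It was at 125 FPKM under 2-cm-high medium and 127 FPKM under 50-cm-high medium. The ratio of *CDH6* was 1.02 as deposited, its log2 ratio of 0.03 turned to -0.04 under quantile normalization of the cultures, and no direction can be read from it. Of the 500 features nearest to *CDH6* in level, 39.2% had a lower log2 ratio.

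*CDH2*, or N-cadherin, which mesenchymal and neural cells use in place of E-cadherin, was at 0.441 and 0.523 FPKM. The values of *CDH2* lay so low that the steps left by whole reads could be resolved. Across low features, 1 read was worth 1.0977 times as much FPKM in the 50-cm-high-medium library, and after division by this factor the ratio of *CDH2* equalled 27 reads (50 cm) against 25 (2 cm) to within 0.005%. If these were the reads themselves, and not a common multiple of them, the exact 95% binomial interval of the ratio runs from 0.662 to 2.13. It includes 1 and covers counting error only.

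The make-up of the cadherin transcripts was nearly the same in both cultures. Of the summed FPKM of *CDH1*, *CDH2* and *CDH6*, *CDH1* took 62.8% under 2-cm-high medium and 64.2% under 50-cm-high medium. *CDH6* took 37.1% and 35.7%, and *CDH2* 0.131% and 0.147%. Per unit of length, the level of *CDH1* was 1.69 times that of *CDH6* under 2-cm-high medium and 1.80 times under 50-cm-high medium. The summed level of the 3 cadherins was 337 and 357 FPKM.

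*CTNNA1* encodes alpha-catenin, the actin-linking subunit of the junction. It had the highest level of the 6 cadherin and catenin genes in both cultures, 360 FPKM under 2-cm-high medium and 349 FPKM under 50-cm-high medium, a ratio of 0.968. Of its 500 nearest features in level, 23.2% had a lower log2 ratio. *LRRTM2*, which lies within the *CTNNA1* span in the RefSeq gene table, was at 0.0127 and 0.0140 FPKM and so near 0 beside it.

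*CTNNB1* encodes beta-catenin, which serves both the junction and, in the nucleus, Wnt-dependent transcription. It was at 278 FPKM under 2-cm-high medium and 235 FPKM under 50-cm-high medium, a ratio of 0.844 and the lowest of the 8 genes. Only 5.6% of its 500 nearest features had a lower log2 ratio, whereas 18.2% of all features above 1 FPKM in both cultures did. The log2 ratio of *CTNNB1*, -0.24, lay 1.96 scaled median absolute deviations below the median of those neighbours, a spread across genes that is not replicate error.

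*CTNND1* encodes p120-catenin, which holds cadherin at the membrane by limiting its endocytosis. It was at 49.0 FPKM under 2-cm-high medium and 45.2 FPKM under 50-cm-high medium, a ratio of 0.923. Of its 500 nearest features in level, 16.8% had a lower log2 ratio.

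Ordered by level under 2-cm-high medium, these genes ran *CTNNA1*, *CTNNB1*, *CDH1*, *CDH6* and *CTNND1*, with *CTNNB1* at 1.32 times the level of *CDH1*. The order was the same under 50-cm-high medium, but *CTNNB1* stood at 1.03 times *CDH1*. Without replicates, no spread is at hand to say which neighbours in this order differ. *JUP*, or plakoglobin, the close relative of beta-catenin that also binds cadherin tails, was at 215 and 208 FPKM, and was above *CDH1* under 2-cm-high medium and below it under 50-cm-high medium. The share of *CTNNB1* in the summed FPKM of *CTNNB1* and *JUP* was 56.4% and 53.1%. The level of *CTNNA1* was 1.29 times that of *CTNNB1* under 2-cm-high medium and 1.48 times under 50-cm-high medium.

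**Figure D2:**
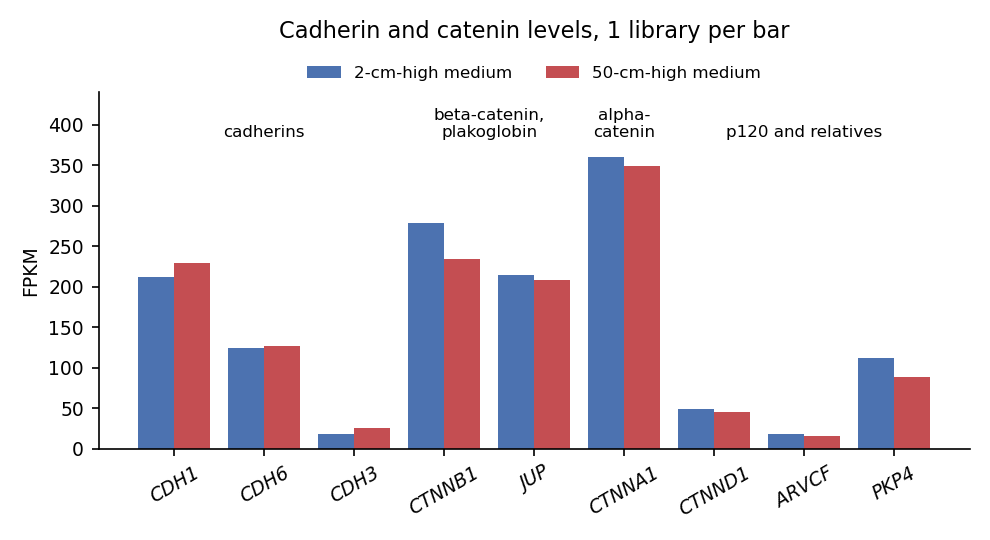
FPKM (linear axis from 0) of cadherin and catenin genes under 2-cm-high medium (blue) and 50-cm-high medium (red), each bar 1 library without error. *CTNNB1* and *PKP4* show the widest gaps, both lower under 50-cm-high medium, followed by *CDH1*, which is higher, and the *CDH6* bars are nearly level.

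*VIM* encodes vimentin, the intermediate filament protein of mesenchymal cells, which many cultured epithelial lines also make. It had the highest level of the 10 genes, 1802 FPKM under 2-cm-high medium and 2380 FPKM under 50-cm-high medium, a ratio of 1.32. Its rank among all features moved from 30 to 14, and its share of the summed FPKM from 0.3001% to 0.387%. At 0.40, the log2 ratio of *VIM* exceeded that of 94.4% of its 500 nearest features and lay 2.44 scaled deviations above their median. With so few features ranked above *VIM*, nearly all of these 500 had lower levels and are not matched to it. Of all features above 1 FPKM in both cultures, 93.5% had a lower log2 ratio.

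Vimentin and the keratins of simple epithelium are both intermediate filament proteins and were both abundant. The *VIM* level was 1.10 times that of *KRT8* and 1.30 times that of *KRT18* under 2-cm-high medium. Under 50-cm-high medium it was 1.52 and 1.82 times as high, with *KRT8* at a ratio of 0.952 and *KRT18* at 0.944 between the cultures. Set against E-cadherin, the *VIM* level was 8.52 times that of *CDH1* under 2-cm-high medium and 10.4 times under 50-cm-high medium, while *CDH1* itself was not lower.

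*FN1* encodes fibronectin, a matrix glycoprotein bound by integrins. It was at 52.7 FPKM under 2-cm-high medium and 77.6 FPKM under 50-cm-high medium, a ratio of 1.47, and its rank among all features moved from 1943 to 1322. At 0.56, the log2 ratio of *FN1* exceeded that of 98.2% of its 500 nearest features and of 97.7% of all features above 1 FPKM in both cultures. *FN1* and *VIM* thus both lay in the upper tail of the ratios, without passing 1.5-fold.

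*SNAI2*, or Slug, is a zinc finger repressor that binds E-boxes in the E-cadherin promoter. It was at 8.41 FPKM under 2-cm-high medium and 11.7 FPKM under 50-cm-high medium, a ratio of 1.39. Of its 500 nearest features, 96.0% had a lower log2 ratio. The level of *CDH1* was 25.2 times that of *SNAI2* under 2-cm-high medium and 19.5 times under 50-cm-high medium. *CDH1* had a ratio of 1.08 between the cultures, and whether *SNAI2* acts on it in these cells was not tested.

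*ZEB1*, another E-box binding repressor of E-cadherin, was at 0.0964 FPKM under 2-cm-high medium and 0.159 FPKM under 50-cm-high medium, the lowest level of the 10 genes in both. The ratio of *ZEB1* was 1.65, which equals 3 reads against 2 to within the same tolerance. Taken as the reads themselves, these give an exact 95% binomial interval from 0.189 to 19.7. It includes 1, as it would at nearly any ratio of so few reads. *ZEB1* was the 1 gene of the 10 past 1.5-fold, and only where any value above 0 was accepted, a setting under which 6.04% of 14306 features were more than 1.5-fold higher. In the RefSeq gene table, *ZNF438* overlaps *ZEB1*. It was at 1.31 and 1.41 FPKM, and whether the counting used strand is not stated.

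**Figure D3:**
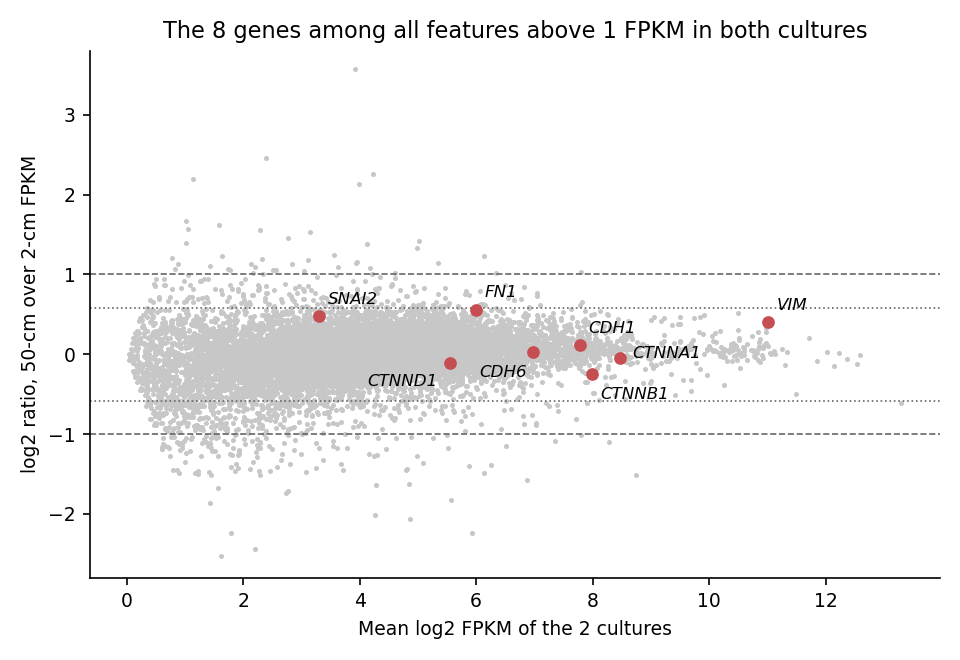
Ratios on the log2 scale, 50 cm over 2 cm (y), against the mean log2 FPKM of the cultures (x) for the 11057 features above 1 FPKM in both (grey), with the 8 genes in red, dotted lines at 1.5-fold and dashed lines at 2-fold. *FN1*, *SNAI2* and *VIM* lie at the upper edge of the cloud at their level, *CTNNB1* at the lower edge, and all 8 lie within the dotted lines.

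The relatives of these genes were described from lists of further cadherins, junction partners, transition factors, epithelial factors and markers. Of all features above 1 FPKM in both cultures, 5820 were higher and 5236 lower under 50-cm-high medium. Past 1.5-fold, 2.13% were higher and 5.06% lower, so a count of 0 in lists this short is near those shares. Of 20 other cadherins, 10 were listed at 0 in both cultures and 3 were above 1 FPKM in both. These were *CDH17*, at 38.9 and 36.9 FPKM, *CDH24*, at 13.6 FPKM in both cultures, and *CDH3*. *CDH3*, or P-cadherin, which is typical of basal cell layers, went from 17.8 FPKM under 2-cm-high medium to 25.3 FPKM under 50-cm-high medium, a ratio of 1.42. Its log2 ratio exceeded that of 96.6% of the features above 1 FPKM in both cultures. Among the *CDH* genes followed here and above 1 FPKM in both cultures, *CDH3* thus had the highest ratio. None of the 3 passed 1.5-fold. *CDH16* had a ratio of 0.345 but did not reach 1 FPKM under 50-cm-high medium.

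All 20 junction partners were analysed, and 15 of them were above 1 FPKM in both cultures, 5 higher and 10 lower under 50-cm-high medium, with a median log2 ratio of -0.05. None passed 1.5-fold. The lowest ratio was 0.748 for *PVRL3* (nectin 3), from 5.63 to 4.21 FPKM, and the highest 1.24 for *PTPN14*, a phosphatase found at junctions. *PKP4*, an armadillo protein related to p120-catenin, was at 111 FPKM under 2-cm-high medium and 88.6 FPKM under 50-cm-high medium. The summed level of *CTNND1* and its relatives *ARVCF* and *PKP4* was 178 and 150 FPKM, a ratio of 0.8404. *VCL* (vinculin), which binds alpha-catenin under tension, was at 77.4 and 76.3 FPKM, nearly equal in both cultures.

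Among the transition factors outside the 10 genes, 10 of 12 were analysed, and 2 were above 1 FPKM in both cultures. *SNAI1*, or Snail, the E-cadherin repressor that gives the family its name, was at 6.86 FPKM under 2-cm-high medium and 13.4 FPKM under 50-cm-high medium. This ratio of 1.95 exceeded that of 99.6% of the features above 1 FPKM in both cultures, and its log2 value lay 4.11 scaled deviations above the median of the 500 features nearest in level. *SNAI1* was the 1 gene of the list past 1.5-fold, and it fell short of 2-fold except with quantile normalization, where its log2 ratio was 1.004 in place of 0.97. *TCF3*, an E-box binding factor, had a ratio of 0.994. *FOXC2* was at 0.430 FPKM under 2-cm-high medium and 0.290 FPKM under 50-cm-high medium, the ratio of 8 reads against 13. If these were the reads themselves, its interval for counting error runs from 0.243 to 1.76. *TCF4* and *ZEB2* were at 0.0549 and 0.00763 FPKM under 2-cm-high medium and listed at 0 under 50-cm-high medium. *TWIST2*, *PRRX1*, *GSC* and *KLF8* were listed at 0 in both.

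*SNAI1* and *SNAI2* therefore both had higher values under 50-cm-high medium, and the order between them turned. *SNAI2* stood at 1.23 times the level of *SNAI1* under 2-cm-high medium and at 0.874 times under 50-cm-high medium. Both kept their direction with a pseudocount of 0.1 or 1 FPKM, with centring on the median log2 ratio, and with quantile normalization. *SNAI3*, the third Snail gene, had a lower value under 50-cm-high medium, 0.0864 FPKM against 0.157 FPKM. Its ratio of 0.549 was that of 1 read against 2. If these were the reads themselves, the interval for counting error runs from 0.0093 to 10.5, and no direction can be read from it.

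Factors that maintain the epithelial state were also present. Of 11, 10 were above 1 FPKM in both cultures, 3 higher and 7 lower under 50-cm-high medium, with a median log2 ratio of -0.13, and none passed 1.5-fold. *ELF3*, an epithelial ETS factor, had the lowest ratio, 0.709, from 157 to 111 FPKM, followed by its relative *EHF* at 0.7304, from 46.9 to 34.3 FPKM. *ESRP1*, a splicing regulator of the epithelial state, had the highest ratio, 1.07, from 33.7 to 36.1 FPKM. *GRHL2*, a grainyhead factor known to sustain E-cadherin, was at 11.7 and 9.57 FPKM, and *KLF5* at 121 and 111 FPKM.

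Of 21 further mesenchymal markers, 6 were above 1 FPKM in both cultures, 3 higher and 3 lower, with a median log2 ratio of 0.05 (0.16 with quantile normalization). *LOX*, a collagen-crosslinking oxidase, went from 31.0 to 47.5 FPKM (ratio 1.53). It was the 1 marker past 1.5-fold upward, and it no longer passed with quantile normalization (log2 ratio 0.55 in place of 0.62). *MMP14*, a membrane metalloprotease, was the 1 past it downward, from 2.58 to 1.31 FPKM (ratio 0.508). The fibronectin receptor subunits *ITGA5* and *ITGB1* had ratios of 1.20 and 1.23, *ITGB1* going from 169 to 207 FPKM. *S100A4*, a calcium-binding protein often used as a fibroblast marker, went the other way, from 105 to 74.5 FPKM (ratio 0.709). The markers did not move together as a list.

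The 20 epithelial markers included 19 above 1 FPKM in both cultures, 8 higher and 11 lower, with a median log2 ratio of -0.04 and none past 1.5-fold. Their lowest ratio was 0.852 for *EPCAM*, an epithelial adhesion protein, from 253 to 216 FPKM, and the highest 1.23 for *LAD1*, or ladinin, from 86.9 to 107 FPKM. The tight junction genes *OCLN* and *TJP1* had ratios of 0.909 and 1.04. *CDH16*, also in the cadherin list, was the 1 marker not above 1 FPKM in both.

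**Figure D4:**
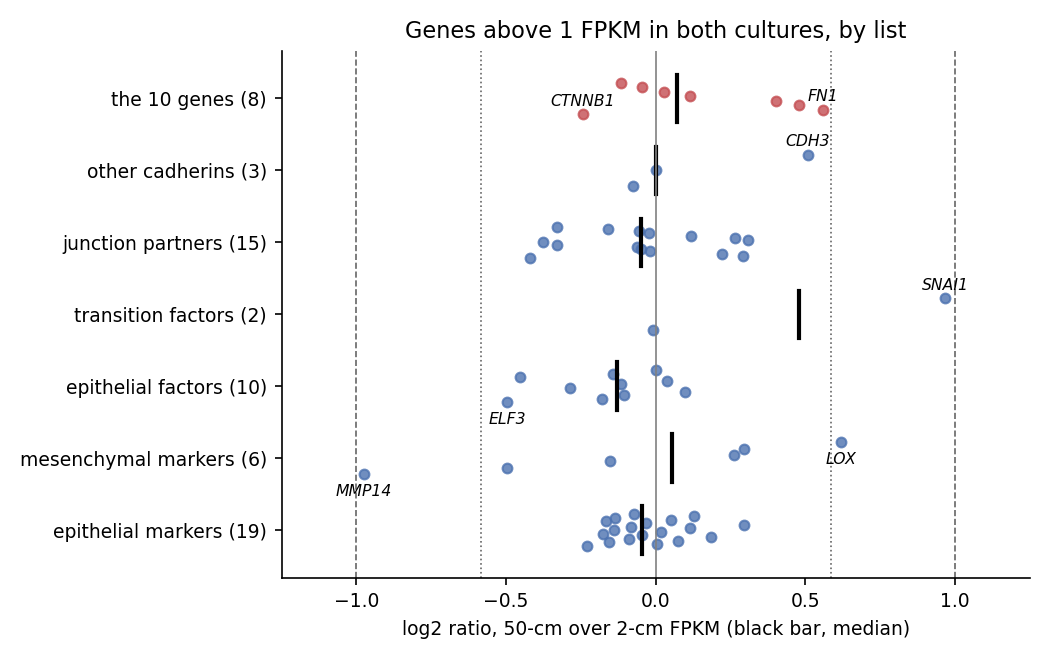
Ratios on the log2 scale, 50 cm over 2 cm, of each gene above 1 FPKM in both cultures, by list (number of genes in brackets), with a black bar at the median, dotted lines at 1.5-fold and dashed lines at 2-fold. *SNAI1* and *LOX* lie beyond the upper dotted line and *MMP14* beyond the lower, while the epithelial markers cluster around 0.

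Values at the low end were set apart by the reads behind them. Of the 10 genes, *CDH2* and *ZEB1* had ratios of whole reads, and none of the ratios of the other 8 matched up to 30 reads per library. Whole reads were taken in lowest terms, which gives the widest intervals. For such genes in the cadherin, transition factor and mesenchymal marker lists, these all included 1. Where the lowest terms were only a few reads, an interval includes 1 at nearly any ratio. For those genes the outcome was fixed by the lowest terms and says nothing about a difference. Multiples of the reads would narrow the intervals, and narrower ones may not include 1. *MMP9* lay just outside the 0.005% tolerance, and read as 11 reads (2 cm) against 1 (50 cm) its interval would not include 1.

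**Figure D5:**
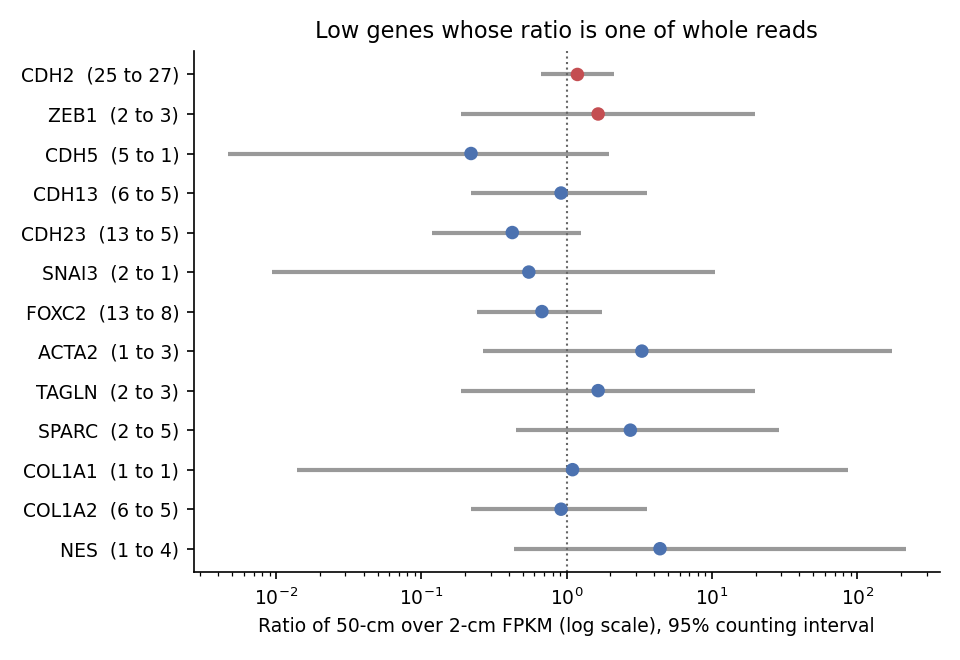
Ratio of 50-cm over 2-cm FPKM (log axis) of low genes at a ratio of whole reads, with the exact 95% binomial interval for the reads in brackets (2-cm to 50-cm, in lowest terms). *CDH2* and *ZEB1* are red and list genes blue. At these lowest reads every interval crosses the dotted line at 1, which for only a few reads holds at nearly any ratio. Multiples of the reads would narrow the intervals.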

How the data were processed

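The authors sequenced stranded mRNA libraries of MDCK cells as 75-base single-end reads, aligned these with TopHat 2.0.13 (using Bowtie 2 2.2.3 and SAMtools 0.1.19) against the CanFam3.1 dog assembly, and deposited FPKM values from Cuffnorm 2.2.1. The gene annotation, the scaling method and the read totals are not given in the sources used here, so the depth is unknown. FPKM under 50-cm-high medium was divided by that under 2-cm-high medium, with no pseudocount. Features above 1 FPKM in both cultures were counted past 2-fold, limits that the study's methods name, and past 1.5-fold as an alternative. The counts were computed here and were not taken from the study's gene list. With 1 library per group no test was run. The worth of 1 read was taken from 215 of the 574 features below 0.1 FPKM in both cultures, which had nearly the same ratio, and a ratio was called one of whole reads where at most 30 reads in each library gave it within 0.005%. This held for 72.9% of 2001 features at or under 0.5 FPKM in both cultures and for 1.67% of 896 features above 100 FPKM. Deviations used the 500 features nearest in mean log2 FPKM. RefSeq annotation of another assembly (UU_Cfam_GSD_1.0) served for overlaps only. The 10 genes and the lists were chosen with earlier results of these data known. Besides the 10 genes, the rule named list members past 1.5-fold, or otherwise the highest and lowest ratio of a list, and up to 3 abundant ones. A few list genes are not reported here and were left out of the lists. Other genes were named for context after their values were seen. The code was tested on simulated data. Python 3.11.15, numpy 2.4.6, pandas 2.3.3, scipy 1.17.1 and matplotlib 3.10.9 were used.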

Additional observations from a re-analysis of the deposited data

How the results depend on the processing

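The alternatives were a pseudocount of 0.1 or 1 FPKM, centring on the median log2 ratio, quantile normalization, other FPKM minima and a 1.5-fold limit. None gave a member past 2-fold, and 1 (*ZEB1*) passed 1.5-fold where any value above 0 FPKM was accepted, which also moved the median log2 ratio of the members from 0.07 to 0.18. Quantile normalization lowered that median to 0.0039, where all features had 0.01. The count of all features past 2-fold, 185, became 92 with a pseudocount of 1 FPKM, 730 above 0.1 FPKM, 62 above 5 FPKM, 1216 above 0 FPKM and 795 at 1.5-fold. Of 40 recomputed log2 ratios of the 10 genes, 34 kept their sign and shifted by less than 0.1. The other 6 concerned *CDH2*, *ZEB1* and *CDH6*. The log2 ratio of *ZEB1*, 0.72, ranged from 0.08 with a pseudocount of 1 FPKM to 0.99 with quantile normalization. No paired analysis was possible because each group is 1 library. The values of the abundant genes carry no counting interval, since their reads could not be resolved.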

Other observations

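Mesenchymal genes under 1 FPKM in at least 1 culture gave some of the widest ratios, and many of these were ratios of whole reads. *SPARC*, a matrix glycoprotein, was at 0.470 FPKM under 2-cm-high medium and 1.29 FPKM under 50-cm-high medium, a ratio of 2.74 that equals 5 reads against 2. If these were the reads themselves, the exact 95% binomial interval for counting error would run from 0.449 to 28.8. *CDH2*, at a similar 0.441 FPKM under 2-cm-high medium, had at least 25 reads there. Thus 2 reads of *SPARC* would need a far shorter exon length than that of *CDH2*. Exon lengths are not given here, so the multiple is not settled and this interval decides nothing. *ACTA2*, or smooth muscle actin, had a ratio of 3.29, that of 3 reads against 1 (interval 0.264 to 173), and *NES*, or nestin, a ratio of 4.39, that of 4 reads against 1 (interval 0.435 to 216). *TAGLN*, or transgelin, at 0.286 and 0.471 FPKM, had the ratio of 3 reads against 2, as did *ZEB1*. Among the cadherins, *CDH5*, the endothelial cadherin, had a ratio of 0.2195, that of 1 read against 5 (interval 0.00464 to 1.96). Multiples of these reads give the same ratios and would narrow the intervals, and a narrower interval may not include 1.

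*MMP9*, a secreted gelatinase, went from 0.382 FPKM under 2-cm-high medium to 0.0381 FPKM under 50-cm-high medium, a ratio of 0.0998. It lay 0.0061% from the ratio of 1 read against 11, just outside the 0.005% tolerance, and read as such its exact 95% binomial interval, from 0.00232 to 0.687, would not include 1. The fibrillar collagen genes *COL1A1* and *COL1A2* were at or under 0.0818 FPKM in both cultures, and *COL3A1*, *TNC*, *POSTN*, *MMP2* and *THY1* were listed at 0 in both. Other fibrillar collagen genes, which were not in the lists and were named after their values were seen, were higher. *COL5A2* was at 296 and 369 FPKM, *COL5A1* at 17.7 and 14.0 FPKM and *COL5A3* at 1.20 and 3.56 FPKM. The low levels of the listed genes stood beside abundant *VIM*, *FN1*, *LOX* and *ITGB1* in the same libraries.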
